A study of Mus musculus with 4 samples.

Results

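The matrix metalloproteinases (MMPs), the ADAM and ADAMTS proteases with their ADAMTS-like relatives, and the tissue inhibitors of metalloproteinases (TIMPs) were described in mouse liver under an atherogenic diet. Members were all genes whose array annotation symbol starts with Mmp and a digit, Timp, Adam and a digit, or Adamts, from probes that name 1 gene. The rule found 58 genes of the 13954 genes with a symbol, measured by 67 of 28845 probes, and no measured value entered it. Of these 58 members, 55 had a value on all 4 arrays. Adam26b, Mmp1a and Mmp8 lacked one on 1 array and entered no test over the 4 arrays.

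The livers came from male C57Bl/6J mice, the strain of every sample. Liver RNA of diet-fed mice in Cy5 was set against that of chow-fed mice in Cy3 on 2-colour oligonucleotide arrays. The 4 arrays held an atherogenic diet for 6 weeks, an atherogenic diet with high fat for 6 weeks, and the same 2 diets for 24 weeks, with 1 array each and no dye swap. The chow mice are labelled with the same duration as their diet mice, except that no duration is given for the chow mice of the atherogenic 6-week array. The composition of the diets, the age of the mice, any pooling of mice and any sharing of a chow sample between arrays are not stated by the labels. Below, "plain" means the atherogenic diet without added high fat.

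Every value is a log2 ratio of diet over chow, so that 1 is a doubling and 0 is the chow level. The deposited values were read as log10, a base that is not stated, and folds would be smaller if it were 2, while p-values do not depend on it. That ratios run as diet over chow was taken from the dyes and is likewise not stated for the values. With only ratios in use, levels could not be compared between genes, and the liver origin could not be checked from the level of hepatocyte genes. The number of values per array was between 27951 and 28806, and the number of arrays sets the precision. The SD over all probes was 0.53 (6 weeks) and 0.463 (24 weeks) for the plain diet, against 0.371 and 0.39 for high fat, so the plain arrays were the more spread. Since RNA of whole liver was measured, more cells of a type and more RNA per cell cannot be told apart. Each condition was 1 array, so no p-value measures the spread between animals. For diet over chow a p-value measures the spread between the 4 conditions. For added high fat and for 24 against 6 weeks it rests on 1 residual degree of freedom. That residual is how far the high-fat difference varied between the 2 durations, pooled with the variance of all genes.

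MMPs are zinc proteases made as inactive precursors, and between them they cleave collagens, elastin, laminins and other proteins of the extracellular matrix. ADAMs sit in the cell membrane and shed the outer parts of receptors, ligands and adhesion proteins, while ADAMTS proteases are secreted and cut proteoglycans and procollagens. TIMPs bind the active site of these enzymes and block it. In injured liver, stellate cells, macrophages and bile duct cells are known sources of several members.

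On an atherogenic diet, 5 members rose and 3 fell against chow. The 5 that rose were Mmp7, Mmp12, Adamtsl2, Mmp14 and Timp1, with mean ratios between 0.50 and 2.94 (log2). The 3 that fell were Mmp11, Adam8 and Mmp16, with means between -0.57 and -0.37. All of these but Timp1 were read by 1 probe each. The threshold was a limma, Benjamini-Hochberg adjusted p under 0.05 over 13705 genes, and it called 1640 of them. The share called higher was 9.09% of the 55 members and 6.25% of all genes, and the share called lower was 5.45% and 5.72%. Both shares of the family thus stood near the background, and its median mean ratio of 0.04 lay beside 0.00 over all genes. A change at a lower bar (unadjusted p under 0.05) was seen in 19 of 55 members, 34.5% against 30.7% of all genes.

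**Figure D1:**
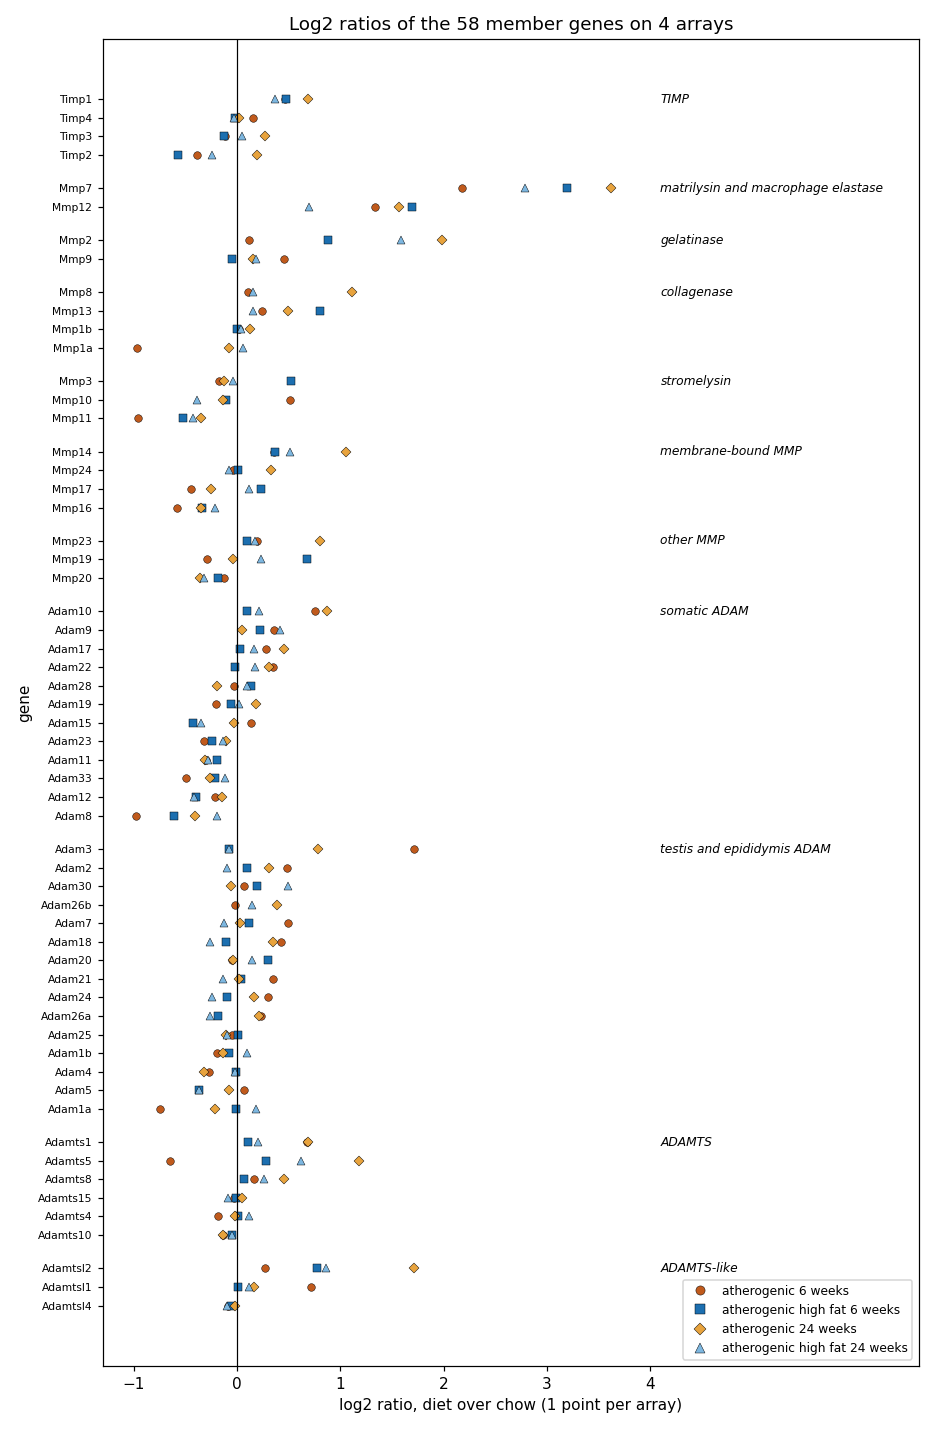
Log2 ratio of diet over chow (horizontal axis) for each of the 58 members (vertical axis), grouped by class, with 1 point per array and 0 as the chow level. Most members lie within 1 log2 unit of chow on every array, and Mmp7 stands between 2.18 and 3.62.

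Mmp7, or matrilysin, is a small MMP without the hemopexin domain of most relatives and is typically made by epithelial cells. Its ratio was 2.18 on the plain 6-week array, 3.19 on the high-fat 6-week array, 3.62 on the plain 24-week array and 2.79 on the high-fat 24-week array. Every array lay far above chow, the plain arrays giving both the lowest and the highest value. The mean of 2.94 ± 0.22 (SE, n = 4 arrays), a 7.69-fold rise, passed with an adjusted p of 0.0019. Counted from the highest ratio among 13705 genes, Mmp7 ranked 32, 1, 1 and 3 on the 4 arrays in that order. It was the single member at least 2-fold above chow on all 4 arrays, a pattern shown by 0.299% of all genes. Leaving out any 1 array kept the mean between 2.72 and 3.20 and its call.

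Mmp12, the macrophage elastase, was the member with the next largest mean. Its ratios were 1.33 and 1.69 on the plain and high-fat 6-week arrays and 1.57 and 0.70 on the plain and high-fat 24-week arrays. The high-fat 24-week array was the lowest and the other 3 lay close together. The mean of 1.32 ± 0.17 (SE, n = 4), or 2.50-fold, had an adjusted p of 0.00767. Without the plain 24-week array the mean was 1.24 and the adjusted p was 0.0613.

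**Figure D2:**
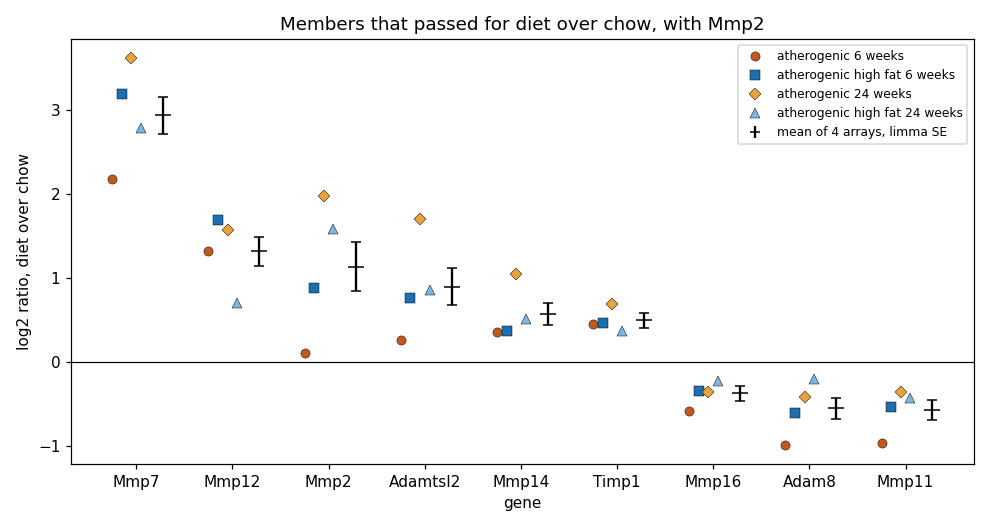
Log2 ratios of diet over chow (vertical axis) for the 8 members that passed and for Mmp2, with 1 point per array and the mean of 4 arrays with its limma standard error. All 4 points of each called gene lie on 1 side of the chow level at 0, and the plain 6-week point is the lowest of the 4 for Mmp7, Mmp2, Adamtsl2, Mmp14, Mmp16, Adam8 and Mmp11.

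Mmp7 and Mmp12 belong to a run of 10 MMP genes that lie side by side on mouse chromosome 9 with 0 other protein-coding genes between them. In order along the chromosome these are Mmp13, Mmp12, Mmp1b, Mmp3, Mmp1a, Mmp10, Mmp8, Mmp27, Mmp20 and Mmp7. Of the 10 genes, 9 were measured and 7 had a value on all 4 arrays. Only Mmp7 and Mmp12 of these 7 passed for diet over chow, and they lie near opposite ends of the run. Mean ratios were 0.42 for Mmp13, 0.04 for Mmp1b and Mmp3, -0.03 for Mmp10 and -0.25 for Mmp20, the tooth enamel protease. On single arrays some genes between Mmp12 and Mmp7 lay further from chow. Mmp3 reached 0.52 (high-fat 6 weeks) and Mmp10 0.51 (plain 6 weeks). Of the genes lacking a value on 1 array, Mmp8 reached 1.11 (plain 24 weeks) and Mmp1a -0.97 (plain 6 weeks).

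**Figure D3:**
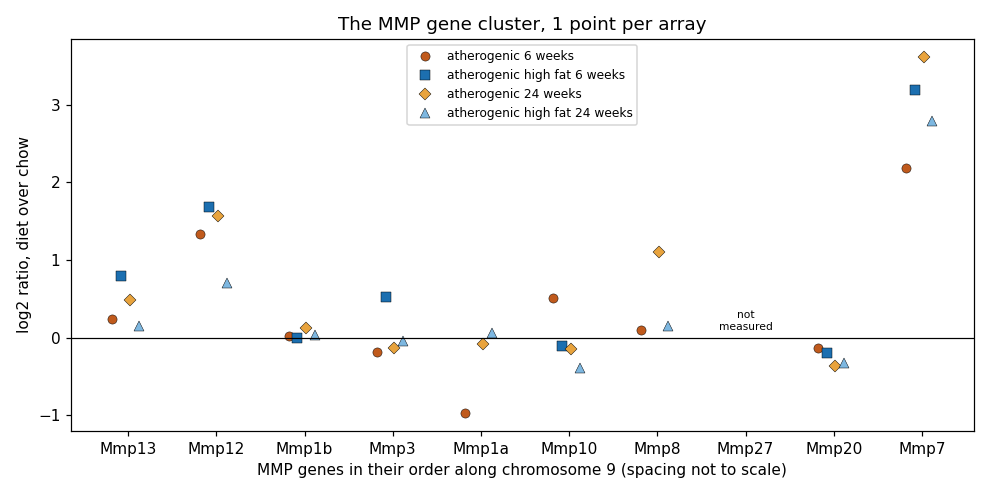
Log2 ratio of diet over chow (vertical axis) of the MMP genes of chromosome 9 in their order along it (horizontal axis, spacing not to scale), with 1 point per array. Mmp12 and Mmp7 lie above chow on all 4 arrays, while Mmp1b stays between 0.00 and 0.12 and Mmp20 lies below chow throughout.

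The promoters of this run are shown because neighbours with unlike ratios carry the same short motif. AP-1, the Fos and Jun factors, is known to bind the heptamer TGAGTCA, which reads TGACTCA on the opposite strand and was long described in MMP promoters. Sequences are from RefSeq (GRCm38.p6), from 110 bases before to 10 bases after an annotated start, 5′ to 3′ on the strand of the gene, with the heptamer in capitals.
Mmp13 (chr9:7272404-7272523, plus strand): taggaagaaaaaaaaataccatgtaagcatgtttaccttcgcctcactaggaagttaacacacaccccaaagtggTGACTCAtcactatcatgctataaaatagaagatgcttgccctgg
Mmp12 (chr9:7347264-7347383, plus strand): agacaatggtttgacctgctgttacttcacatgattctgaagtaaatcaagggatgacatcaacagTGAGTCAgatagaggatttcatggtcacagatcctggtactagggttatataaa
Mmp3 (chr9:7445712-7445831, plus strand): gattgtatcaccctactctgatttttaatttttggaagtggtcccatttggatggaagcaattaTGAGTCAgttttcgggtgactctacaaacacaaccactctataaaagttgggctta
Mmp10 (chr9:7502232-7502351, plus strand): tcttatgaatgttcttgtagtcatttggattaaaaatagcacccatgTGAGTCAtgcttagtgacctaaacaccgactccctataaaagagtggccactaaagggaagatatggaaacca
Mmp20 (chr9:7628121-7628240, plus strand): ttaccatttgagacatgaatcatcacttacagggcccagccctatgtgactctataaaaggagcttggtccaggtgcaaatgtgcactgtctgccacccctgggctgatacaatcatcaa
Mmp7 (chr9:7691980-7692099, plus strand): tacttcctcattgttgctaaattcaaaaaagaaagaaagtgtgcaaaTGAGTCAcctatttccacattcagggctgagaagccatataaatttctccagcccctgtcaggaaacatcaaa
The heptamer began 63 bases before the start shown in both Mmp7, with a mean ratio of 2.94, and Mmp10, with -0.03. In Mmp3 it began 46 bases and in Mmp13 35 bases before the start. Mmp7 and Mmp12 each have 2 annotated starts, and the stretch of the same length at the start not shown holds no heptamer in either gene. In Mmp12 the heptamer began 44 bases before the start shown. The Mmp20 window shown holds none. Of the windows not shown, the heptamer began 93 bases before the start in Mmp1b and 73 in Mmp1a, and Mmp8 and Mmp27 hold none. Starts are as annotated, and the letters TATAAA lie at unlike distances from them. They began 29 bases before the start in Mmp10, 26 in Mmp7, 16 in Mmp13, 7 in Mmp3 and 58 in Mmp20, and after the start shown in Mmp12.

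Windows of 300 bases around a start were found for 33 of the 58 members. The heptamer, on either strand, was in a window of 9 of these 33 members, and in 5.2% of all 32851 windows of that length. It was in 7 of the 9 measured genes of the run and in 2 of 24 members elsewhere, Adam19 and Adam1b. Other motifs searched were AGGAAG, with CTTCCT as its reverse complement, bound by Ets factors, in 15 of 33 members and 35.35% of all windows, and TATAAA, with TTTATA as its reverse complement, the TATA box, in 11 of 33 members and 13.62% of all windows. A member was counted if any of its windows held the motif, the 33 members having 38 windows, while all windows were counted singly. The 2 shares are thus not the same measure. Each motif was counted on its own whether or not it overlapped another, and all 3 were picked after the sequences had been read. A match describes these letters and is not a measured binding site.

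Among the inhibitors, Timp1 rose and the other 3 TIMPs did not pass. Timp1, which blocks most secreted MMPs, stood at 0.46 and 0.47 on the plain and high-fat 6-week arrays and at 0.69 and 0.37 on the plain and high-fat 24-week arrays. All 4 values, each the mean of 2 probes, lay above chow within a narrow range. The mean was 0.50 ± 0.09 (SE, n = 4), 1.41-fold, with an adjusted p of 0.0198. Its 2 probes gave different pictures. One read 1.02, 0.44, 1.23 and 0.54 (plain 6 weeks, high-fat 6 weeks, plain 24 weeks, high-fat 24 weeks; adjusted p = 0.0213 in a limma fit over all probes), higher on both plain arrays. The other read -0.10, 0.49, 0.16 and 0.19 in the same order (adjusted p = 0.339), lowest on the plain 6-week array. The rise of Timp1 therefore rests on 1 of its 2 probes, and each probe alone was more spread over the arrays than their mean. The adjusted p also became 0.0643 without the high-fat 6-week array, 0.0895 without the plain 24-week array and 0.0519 without the high-fat 24-week array.

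Timp2, which also helps Mmp14 to activate the Mmp2 precursor, had a mean of -0.25 ± 0.13 (adjusted p = 0.251), its only value above chow being 0.19 on the plain 24-week array and its lowest -0.57. Timp3, the matrix-bound inhibitor of Adam17, had a mean of 0.01 ± 0.10, and Timp4 one of 0.03 ± 0.08. Neither left the range from -0.13 to 0.27 on any array.

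Of the gelatinases, which cut denatured and basement membrane collagen, Mmp2 lay just outside the threshold. Its ratios were 0.11 and 0.88 on the plain and high-fat 6-week arrays and 1.98 and 1.59 on the plain and high-fat 24-week arrays. The values ran from near chow to almost 2 log2 units above it, with both 24-week arrays on top. The mean was 1.14 ± 0.29 (SE, n = 4), 2.20-fold, with an adjusted p of 0.0505, and without the plain 6-week array it was 1.48 with an adjusted p of 0.0173. Mmp9, the gelatinase of neutrophils and macrophages, read 0.45, -0.05, 0.15 and 0.18 (plain 6, high-fat 6, plain 24 and high-fat 24 weeks), a mean of 0.18 ± 0.10 with an adjusted p of 0.274.

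The membrane-bound MMPs split by direction. Mmp14 (MT1-MMP), a collagenase of the cell surface that activates the Mmp2 precursor, had ratios of 0.36 and 0.37 at 6 weeks and of 1.05 and 0.51 at 24 weeks, the plain diet first. It was above chow throughout and highest on the plain 24-week array. Its mean of 0.57 ± 0.13 (SE, n = 4), 1.49-fold, had an adjusted p of 0.0416. Mmp16 (MT3-MMP) read -0.58 and -0.34 at 6 weeks and -0.35 and -0.22 at 24 weeks, with a mean of -0.37 ± 0.09, 1.29-fold lower (adjusted p = 0.0458). Both were called only with all 4 arrays, the adjusted p running from 0.0551 to 0.102 for Mmp14 and from 0.0903 to 0.146 for Mmp16 when 1 array at a time was left out. In the fit over all probes Mmp16 also missed the threshold, with 0.0569. The other 2, Mmp17 and Mmp24, had means of -0.09 and 0.05.

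Stromelysins cleave proteoglycans, laminin and fibronectin. Mmp11, the stromelysin of fibroblasts that is cut to its active form inside the cell, fell. It read -0.96 and -0.53 on the plain and high-fat 6-week arrays and -0.35 and -0.43 on the plain and high-fat 24-week arrays. All 4 values lay below chow, furthest on the plain 6-week array. The mean of -0.57 ± 0.12 (SE, n = 4), 1.48-fold lower, had an adjusted p of 0.0311, and of 0.08 without the high-fat 6-week array, 0.0909 without the plain 24-week array and 0.0646 without the high-fat 24-week array. Mmp3 and Mmp10 had values on both sides of chow.

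Of the secreted collagenases, Mmp13 and Mmp1b had 4 values and neither passed. Mmp13 was above chow on every array, at 0.24, 0.80, 0.49 and 0.15 (plain 6, high-fat 6, plain 24 and high-fat 24 weeks), with a mean of 0.42 ± 0.12 and an adjusted p of 0.0774. Mmp8, the neutrophil collagenase, had 0.10 on the plain 6-week array, 1.11 on the plain 24-week array and 0.15 on the high-fat 24-week array, and in a fit that kept genes with 3 values its mean was 0.45 ± 0.22 (adjusted p = 0.229). Mmp1a read -0.97, -0.08 and 0.06 on the same 3 arrays, with a mean of -0.33 ± 0.22 (adjusted p = 0.351). Mmp23, which like Mmp7 lacks the hemopexin domain, reached 0.80 on the plain 24-week array, the other values being 0.09 to 0.19, with a mean of 0.32 and an adjusted p of 0.168. Mmp19 had a mean of 0.14.

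The 26 ADAMs with 4 values had a median mean ratio of 0.00, and 1 of them passed. Adam8, a membrane protease of neutrophils and macrophages, read -0.98 and -0.61 on the plain and high-fat 6-week arrays and -0.41 and -0.20 on the plain and high-fat 24-week arrays. All 4 values were below chow, the 6-week values more so. The mean was -0.55 ± 0.13 (SE, n = 4), 1.46-fold lower, with an adjusted p of 0.0469. That call ended in the fit over all probes (0.051) and without the plain 6-week (0.0792), high-fat 6-week (0.12) or plain 24-week array (0.139).

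Adam10, which sheds Notch receptors and cadherins, and Adam17, which releases tumour necrosis factor and ligands of the epidermal growth factor receptor, were above chow on all 4 arrays without passing. Adam10 had a mean of 0.48 ± 0.15 (adjusted p = 0.0883), and Adam17 one of 0.23 ± 0.10 (adjusted p = 0.163). Adam9 had a mean of 0.26 (adjusted p = 0.119) and was also above chow throughout. Below chow on all arrays without passing were Adam12 with a mean of -0.30 (adjusted p = 0.0756), Adam33 with -0.28 (0.104), Adam4 with -0.15 (0.306), and Adam11 and Adam23, which lack the catalytic zinc site, with -0.27 (0.0678) and -0.20 (0.156). Adam15, Adam19 and Adam28 had means of -0.17, -0.02 and 0.00.

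Among the secreted ADAMTS proteases no gene passed. Adamts1, which cleaves versican and aggrecan, had ratios of 0.68 and 0.69 without added fat and of 0.10 and 0.20 with it, with a mean of 0.42 (adjusted p = 0.0846). Adamts5, an aggrecanase, read -0.65 and 0.28 at 6 weeks and 1.18 and 0.62 at 24 weeks, the plain diet first. It lay on both sides of chow, and its mean was 0.36 ± 0.27 (adjusted p = 0.408). Adamts4 had a mean of -0.02 and Adamts10 one of -0.10.

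Adamtsl2, a matrix protein of the ADAMTS-like group that has no protease domain and binds fibrillin microfibrils, did rise. Its ratios were 0.27 and 0.77 on the plain and high-fat 6-week arrays and 1.71 and 0.86 on the plain and high-fat 24-week arrays. The plain arrays gave the extremes. Its mean of 0.90 ± 0.22 (SE, n = 4), 1.87-fold, had an adjusted p of 0.044, and of 0.0866, 0.105 and 0.084 without the high-fat 6-week, plain 24-week and high-fat 24-week arrays.

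On single arrays, 14 of 55 members were above chow on all 4, 25.5% against 20.7% of all genes, and 11 were below on all 4, 20.0% against 20.0%. Of the 55 members, 7 were at least 2-fold from chow on at least 1 array, 12.7% against 8.92% of all genes, and on each of those arrays they were above it. The plain 24-week array held 6 of them (10.9%, against 2.14% of all genes that were 2-fold above chow there), namely Mmp7, Mmp2, Adamtsl2, Mmp12, Adamts5 and Mmp14. On the plain 6-week array Mmp7, Adam3 and Mmp12 were 2-fold above chow (5.45%, against 4.31% of all genes). On the high-fat 6-week array these were Mmp7 and Mmp12 (3.64%, against 0.671%), and on the high-fat 24-week array Mmp7 and Mmp2 (3.64%, against 0.963%). A ratio 2-fold below chow was seen in 0 members on any array, and in 1.64%, 1.33%, 1.29% and 1.55% of all genes on the plain 6-week, high-fat 6-week, plain 24-week and high-fat 24-week arrays.

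Related genes were taken in lists chosen with earlier results of these data known. Over all genes 6.25% rose and 5.72% fell. Of the related genes, matrix proteins that the family cleaves had the most rises, 8 higher and 1 lower of 25. Col1a2 (1.75), Col5a2 (1.68), Col3a1 (1.03) and Dcn, the collagen-binding proteoglycan decorin (0.88), led the rises with adjusted p-values between 0.00737 and 0.011, and Lama1 (-0.57, adjusted p = 0.0299) fell. The list's median mean ratio was 0.23, against 0.00 over all genes. Of 13 other inhibitors and partners, 3 rose and 0 fell. These were Lcn2, whose protein binds Mmp9 (2.22, adjusted p = 0.00128), the tetraspanin Cd9 (1.75, adjusted p = 0.00487) and Sparc (1.18, adjusted p = 0.011).

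Of 10 genes of the plasminogen system, which generates plasmin, an activator of MMP precursors, 1 rose and 2 fell. Serpinb2, an inhibitor of plasminogen activators, fell by 1.97 ± 0.14 (adjusted p = 0.00162), Plau, the urokinase, had a mean of -0.45 (adjusted p = 0.0312), and its receptor Plaur one of 0.38 (adjusted p = 0.0414). Among 15 proprotein convertases and other zinc endopeptidases 1 fell, Pcsk6 (-0.40, adjusted p = 0.0265), and 0 rose. Among 24 shedding regulators and shed proteins 2 rose, Vcam1 (1.25, adjusted p = 0.0183) and Cxcl16 (1.10, adjusted p = 0.0181), and 2 fell, Egfr (-0.41, adjusted p = 0.0277) and Notch1 (-0.39, adjusted p = 0.0376).

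Markers of other liver cell types moved in the same samples. These lists too were chosen with earlier results known, and 6.25% of all genes rose and 5.72% fell. Of 15 macrophage markers 9 rose and 1 fell, and their median ratio was between 0.73 and 1.01 on the 4 arrays. Of 14 stellate cell and fibroblast markers 6 rose and 1 fell (medians 0.26 to 0.61), of 9 bile duct markers 3 rose and 0 fell (0.33 to 0.91), and of 9 neutrophil markers 2 rose and 1 fell (0.00 to 0.59). Of 11 hepatocyte markers 0 rose and 1 fell, with medians of 0.05 and 0.19 on the plain 6-week and 24-week arrays and of -0.85 and -0.63 on the high-fat 6-week and 24-week arrays. Of 9 endothelial markers 1 rose and of 11 lymphocyte markers 2 rose, with 0 lower in either list. Their part in the changes of Mmp7, Mmp12, Adamtsl2, Mmp14, Timp1, Mmp11, Adam8 and Mmp16 was not tested.

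With high fat added to the atherogenic diet, 3 members fell and 0 rose, and all 3 were ADAMs. Adam3 and Adam18 are known from testis, where Adam3 is needed for sperm to bind the egg coat, and Adam10 is the widely expressed sheddase. These 3 of 55 members are 5.45%, against 11.2% of all genes called for this comparison, 7.25% lower and 3.99% higher. The comparison is high-fat minus plain within each duration, over both durations, from a limma model with terms for high fat and duration.

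Adam3 read 1.71 at 6 weeks and 0.78 at 24 weeks without added fat, and -0.08 at each duration with it. Both high-fat values were at chow level and both plain values well above it. The difference was -1.32 ± 0.22 (SE), with an adjusted p of 0.021. Adam10 read 0.75 and 0.87 without added fat and 0.09 and 0.21 with it, a difference of -0.66 in each duration (-0.66 ± 0.14, adjusted p = 0.0317). Adam18 read 0.42 and 0.35 without added fat and -0.11 and -0.26 with it, so that the diets lay on opposite sides of chow (-0.56 ± 0.14, adjusted p = 0.0447). In a model with the high-fat term alone the adjusted p-values were 0.0953, 0.0826 and 0.0904 for Adam3, Adam10 and Adam18. Each of these genes was read by 1 probe, and spot intensities were not analysed.

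Markers of some cell types differed between the diets as well. For added high fat, 5 of 11 hepatocyte markers were called lower and 1 higher. Among them Serpina1a (-2.02, adjusted p = 0.00374), Ttr (-1.81, adjusted p = 0.00374) and Alb (-1.53, adjusted p = 0.00836) were lower and Fga (0.80, adjusted p = 0.0307) was higher. On the high-fat arrays 14 probes shared the log10 value -0.406 at 6 weeks, and 14 shared -0.384 at 24 weeks. Converted to log2, these lie close to the high-fat values of Alb (-1.34 at 6 weeks, -1.28 at 24 weeks), Ttr (-1.35, -1.27) and Serpina1a (-1.35, -1.25). What such repeated values reflect was not tested. Of the neutrophil markers 3 of 9, of the macrophage markers 2 of 15 and of the bile duct markers 1 of 9 were called lower, with 0 higher in these 3 lists. Of 14 stellate cell and fibroblast, 9 endothelial and 11 lymphocyte markers 0 were called in either direction. Over all genes 7.25% were called lower and 3.99% higher. The part of these cell types in the differences of Adam3, Adam10 and Adam18 was not tested.

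**Figure D4:**
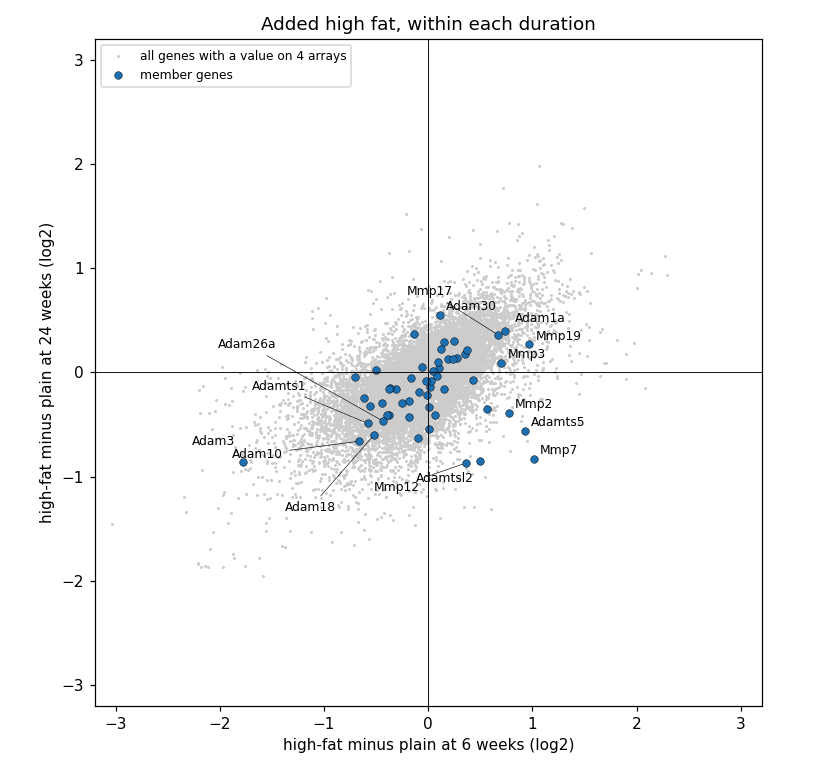
High-fat minus plain log2 ratio at 24 weeks (vertical axis) against that at 6 weeks (horizontal axis), for all 13705 genes in grey and the 55 members in blue. Adam3, Adam10 and Adam18 lie in the lower left, below 0 at both durations, while Mmp7, Mmp2, Adamts5 and Adamtsl2 lie in the lower right, above 0 at 6 weeks and below it at 24 weeks.

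Both high-fat arrays lay below both plain arrays in 15 members, 27.3% against 36.2% of all genes, and above them in 14 members, 25.5% against 25.3%. In 5 members (9.09%, against 10.8% of all genes) both plain arrays were above chow and both high-fat arrays below it, and in 5 others (9.09%, against 8.62%) the reverse held. Lower without passing were Adamts1 (-0.53, adjusted p = 0.0504) and Adam26a (-0.45, adjusted p = 0.0741). Higher without passing were Mmp19 (0.62, adjusted p = 0.0717), Adam1a of the sperm protein fertilin (0.57, adjusted p = 0.0539), the membrane-anchored Mmp17 (0.52, adjusted p = 0.0632), Mmp3 (0.40, adjusted p = 0.171) and Adam30 (0.33, adjusted p = 0.193). Mmp19 read -0.29 and -0.04 without added fat, and 0.68 and 0.23 with it. The 14 tested ADAMs known mainly from testis and epididymis had a median high-fat difference of -0.25, beside -0.06 over all genes. They were split in direction, both high-fat arrays lying below both plain arrays in 6 of the 14 and above them in 5.

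Probes of 1 gene also differed here. Of the 3 probes of Adam15, 1 read -0.13 and -0.43 on the plain and -1.22 and -0.99 on the high-fat arrays (difference -0.82, adjusted p = 0.0291 in the fit over all probes), and the other 2 had differences of -0.18 and -0.32. In the same fit 1 of the 2 probes of Adam26a passed lower (-0.59, adjusted p = 0.0379, against -0.30 and 0.179 by the other), and 1 of the 2 probes of Adam1a passed higher (0.52, adjusted p = 0.0499, against 0.61 and 0.0804). For Timp1 the high-fat difference was -0.63 (adjusted p = 0.033) by 1 probe and 0.31 (adjusted p = 0.239) by the other.

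Between 6 and 24 weeks no member passed, 0 of 55, as no gene did among 13705 (limma, 0 called). At an unadjusted p under 0.05 there were 9 members, 16.4%, against 9.87% of all genes. The largest duration difference among members was that of Mmp2, at 1.29 ± 0.25 (adjusted p = 0.259), with a rise in ratio of 1.87 on the plain and of 0.70 on the high-fat diet. Adamts5 had a difference of 1.08 ± 0.31 (adjusted p = 0.372), 1.83 on the plain diet and 0.34 on the high-fat diet. Adamtsl2 followed with 0.76 (adjusted p = 0.446), and Adam8 with 0.49 (0.372) and Timp2 with 0.46 (0.397). Mmp14 had 0.42 (0.489).

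Lower at 24 weeks without passing were Mmp10 (-0.47, adjusted p = 0.399), Adam7 of the epididymis (-0.35, adjusted p = 0.489), Adam21 (-0.25, adjusted p = 0.6), Adam2 (-0.18, adjusted p = 0.724) and Mmp20 (-0.18, adjusted p = 0.723). Both 24-week arrays lay above both 6-week arrays in 12 members, 21.8% against 14.0% of all genes, and below them in 5 members, 9.09% against 10.5%.

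**Figure D5:**
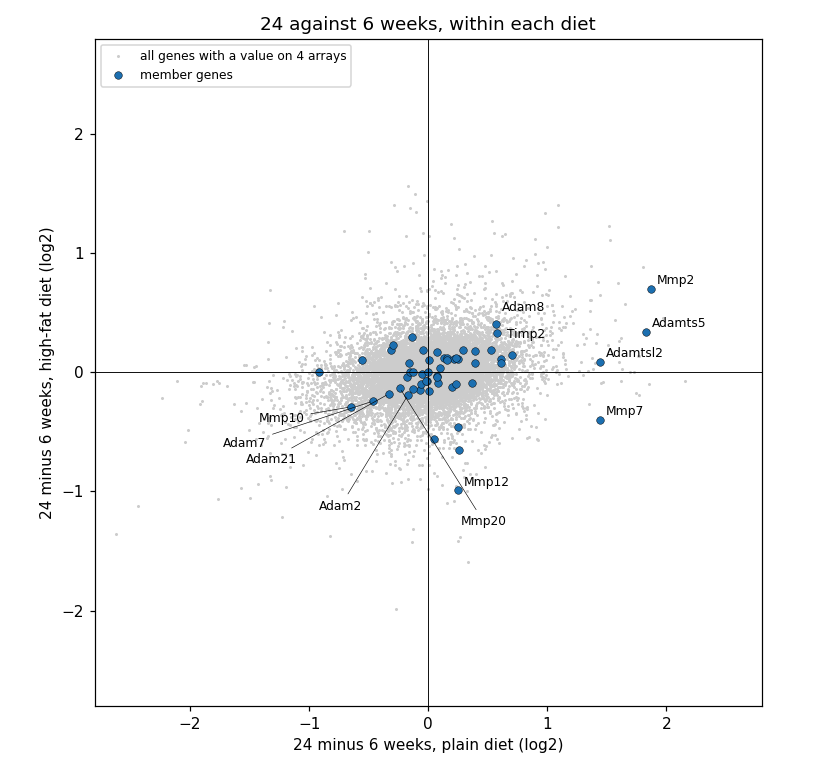
Change in log2 ratio from 6 to 24 weeks on the high-fat diet (vertical axis) against that on the plain diet (horizontal axis), for all 13705 genes in grey and the 55 members in blue. Mmp2 and Adamts5 lie furthest right among the members, with plain-diet changes of 1.87 and 1.83, and Mmp12 lies lowest among the members, with a high-fat change of -0.99.

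Several members shared a pattern over diet and duration. In Mmp7, Mmp12, Mmp2, Adamtsl2, Adamts5 and Mmp13 the high-fat array was above the plain array at 6 weeks and below it at 24 weeks. High-fat minus plain was 1.01 at 6 weeks and -0.83 at 24 weeks in Mmp7, and 0.36 and -0.87 in Mmp12. It was 0.77 and -0.39 in Mmp2, 0.50 and -0.85 in Adamtsl2, 0.93 and -0.56 in Adamts5, and 0.56 and -0.35 in Mmp13. These 6 members, 10.9% of 55, were past 0.3 in both directions, as were 0.679% of all genes. The reverse crossing was seen in 0 members and 0.445% of all genes. Of the 856 genes that rose on the diet, 9 crossed (1.05%), and 3 of those were members. Among the related genes and cell type markers Tnf, Col5a2, Lum, Bicc1 and Gpnmb crossed too, with 0.95 at 6 weeks and -0.66 at 24 weeks in Col5a2 and 0.60 and -1.31 in Lum.

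That limit of 0.3 was chosen after the values had been seen, and with 1 array per condition the crossing itself cannot be tested. With each array scaled to a common spread, 2 members crossed, Adamtsl2 and Mmp12, 3.64% of members against 0.445% of all genes. With arrays centred only, 5 did, without Mmp12.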

How the data were processed

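Amplified liver RNA (diet in Cy5, chow in Cy3) was hybridised to AceGene mouse oligonucleotide arrays, read with GenePix Pro 4.1 and LOWESS-normalized in GeneSpring 7.2, as the labels and design text state. The deposited values are log ratios taken as log10, a base inferred from their spread and not stated. They were converted to log2, and if the base were 2 the fold of Mmp7 would be 1.85. The dyes named in the labels gave the direction, which is not stated for the values. Median log2 ratios per array were between -0.056 and 0.02, and any centring beyond LOWESS is unknown. Spot intensities were not analysed here.

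Of 28845 probes, 17637 carried a single gene symbol, 64 carried several and 11144 were absent from the platform annotation used. Symbols were updated by gene identifier to RefSeq (252 probes unmatched). A gene is the mean of its probes with a value on all 4 arrays, which left 13705 genes.

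Tests used limma 3.58.1 in R 4.3.3 (eBayes, two-sided, Benjamini-Hochberg over all genes, threshold 0.05). Diet over chow was the mean of 4 arrays against 0 (3 residual degrees of freedom). An additive model gave the high-fat and duration terms (1 residual degree of freedom). The smallest exact sign-flip p over 4 arrays is 0.125, so no exact test is given. The scripts were tested on simulated data.

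Members, classes and gene lists were chosen with earlier results of these data known. Named were TIMPs, members that passed, the 10 largest means of 1 sign in each direction, the 5 largest high-fat and duration differences of 1 sign in each direction, and a list of well-studied members, of which Mmp15, Adamts2, Adamts7 and Adamts13 were not measured by a probe of 1 gene. Of related genes those past the threshold are named, at most 4 per list. Alternatives were centring, scaling, other summaries of probes, a fit over all probes, genes with 3 values, robust eBayes, omission of probes at repeated values, other models and thresholds, and leaving out each array. Crossing counts under other scalings were added after the data had been seen.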

Additional observations from a re-analysis of the deposited data

Results flagged for a closer look

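Mmp23 on the plain 24-week array was far from its other values, at 0.80 against 0.09 to 0.19 on the other 3 arrays, a gap of 0.86 of the whole range. Chance flags about 1 gene in 20 by this measure (Dixon's gap ratio for 4 values).

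The 2 diets differed by the test of the difference itself in 3 members, high-fat minus plain being -1.32 for Adam3, -0.66 for Adam10 and -0.56 for Adam18. These are 5.45% of the 55 members, against 11.2% of all genes called for this comparison. With the high-fat term alone in the model no member passed.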

How the results depend on the processing

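The count of members called for diet over chow was 8 of 55 with all 4 arrays. With terms for high fat and duration in the model it was 22 of 55, where 38.1% of all genes were called. It was 2 at an adjusted p threshold of 0.01 and 14 at 0.1, for which no share of all genes is given. When 1 array at a time was left out, it was between 1 and 6. It was 6 without the plain 6-week, 2 without the high-fat 6-week, 1 without the plain 24-week and 3 without the high-fat 24-week array, and Mmp7 was called in each. The shares of all genes called were 8.60%, 5.72%, 2.09% and 5.54% in that order. Across the other alternatives the count of members stayed between 6 and 10. For added high fat, 3 became 8 with arrays scaled to a common spread, 5 with the median of probes, 5 with the largest probe, 8 in the fit over all probes, 0 with the high-fat term alone, 0 at 0.01 and 11 at 0.1. The share of all genes called also moved, from 11.2% to 15.2% scaled, 14.3% with the median and 13.5% with the largest probe, beside 14.5%, 9.09% and 9.09% of members. Members whose high-fat difference crossed between 6 and 24 weeks went from 6 to 2 with scaled arrays. For 24 against 6 weeks the count was 0 in every setting. Over all 13705 genes, 1640 calls for diet became 5219 with the extra terms and 286 to 1179 with 1 array left out. For high fat, 1541 calls (11.2% of genes) became 8 with its term alone. The fit over probes counts probes and not genes. Of its 27870 probes, 2880 (10.3%) were called for diet and 4411 (15.8%) for high fat. The share of high-fat calls that were higher was 35.5%, and 24.8% with arrays centred, 25.3% scaled and 55.3% over probes. The mean of Adam26a turned to 0.00 with arrays centred, and that of Adam28 to 0.00 centred and 0.02 scaled. With 1 array left out, means near 0 changed sign: Adam18 (-0.01 to 0.22), Adam19 (-0.08 to 0.05), Adam21 (-0.03 to 0.14), Adam26a (-0.08 to 0.08), Adam28 (-0.05 to 0.06), Adamts4 (-0.07 to 0.03), Mmp10 (-0.21 to 0.09), Mmp17 (-0.19 to 0.03), Mmp19 (-0.04 to 0.29), Mmp3 (-0.12 to 0.12), Timp3 (-0.07 to 0.06) and Timp4 (-0.01 to 0.05). None of these had passed. For diet over chow, the extra terms left 1 residual degree of freedom in place of 3. What caused these changes in counts and means was not tested. No paired analysis was possible because each condition has 1 array and the labels give no replicate numbers, and diets were matched by duration only, through the duration term.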
